A study of Mus musculus with 6 samples.

Results

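miR-210 is a microRNA best known for its rise under low oxygen. Its gene is a target of the hypoxia-inducible factors HIF, transcription factors that accumulate when oxygen falls, and its 3p arm represses mRNAs of mitochondrial iron-sulfur cluster assembly and respiration, such as Iscu. The inner medulla, the innermost zone of the kidney, works at low oxygen tension because of its sparse, countercurrent blood supply. A microRNA gene yields a hairpin that Dicer cuts into a duplex, from which the strand of the 5′ side (5p arm) or of the 3′ side (3p arm) is kept. The 2 rows named miR-210, mmu-miR-210-3p and mmu-miR-210-5p, were taken from a table of 1081 mature microRNA entries, and both passed the filter on low values described below.

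Small RNA of the inner medulla was profiled in 1-month-old mice, with 3 control libraries and 3 libraries of the genotype DicerAQP2Cre+. In the latter Dicer1, the gene of the enzyme that cuts precursor hairpins, is deleted in cells that express aquaporin-2 (AQP2), the vasopressin-regulated water channel of principal cells in the collecting duct. The labels give the controls no further genotype, and the series describes 3 mice of each genotype. Whole tissue was used, so cells in which Dicer1 was not deleted were included, and fewer cells of a type cannot be told apart from less RNA per cell. The columns of the deposited table named CK01 to CK03 were read as conditional knockout replicates 1 to 3, an inference on which every direction rests.

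The mature arms are shown with their seeds, bases 2 to 8, in capitals, because these bases choose the targets. Sequences are those of RefSeq for GRCm38.p6, written 5′ to 3′.
miR-210-3p: cUGUGCGUgugacagcggcuga
miR-210-5p: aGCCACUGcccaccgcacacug
In the hairpin the capitals mark both arms, the 5p arm first.
Mir210 hairpin: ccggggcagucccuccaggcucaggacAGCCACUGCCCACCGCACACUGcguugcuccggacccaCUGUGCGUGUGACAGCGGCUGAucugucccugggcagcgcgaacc
Both arms are 22 bases long, so their read counts compare per length. They span bases 28 to 49 and 66 to 87 of the 110-base hairpin, and 16 base pairs join them in the structure of lowest free energy predicted by RNAfold. The arms are rich in G and C, with 63.6% in miR-210-3p and 68.2% in miR-210-5p against a median of 52.2% over the 389 of 461 tested entries with a RefSeq sequence. Of the 919 table entries with a sequence, 0 others carried the seed of either arm, and none of the other mature sequences in the RefSeq table did. In the GENCODE M21 annotation of GRCm38, Mir210 lies on chromosome 7 outside any other annotated gene. Rassf7, on the opposite strand, is the nearest neighbour at 2.7 kb, Lmntd2 and Phrf1 lie 7.3 kb away, and no other microRNA gene lies within 10 kb.

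Libraries held 2934851 to 7614853 reads assigned to microRNAs, recovered from the deposited values. DicerAQP2Cre+ replicate 2 was the shallowest. Markers of the collecting duct and other epithelium (miR-200a-3p, miR-200b-3p, miR-200c-3p, miR-141-3p, miR-429-3p and miR-30a-5p) were present in every library. They summed to 85136 to 113702 normalized reads in controls and 37754 to 83219 in DicerAQP2Cre+ libraries. Most of each sum was miR-30a-5p, at 67486 to 95994 in controls and 29777 to 72443 in DicerAQP2Cre+ libraries. Normalized reads are reads divided by a size factor for each library. Genotypes were compared with limma, a linear model over all entries that shares information on their spread, on log2(value + 1) for the 461 entries with a mean of at least 5. Calls needed a p under 0.05 after Benjamini-Hochberg adjustment. Of the 6 epithelial markers 5 fell, where limma called 23 of all 461 entries lower (4.99%). The remaining marker, miR-30a-5p, did not pass (limma adjusted p = 0.118). With control replicate 2 or 3 left out limma called 0 entries lower, these markers included. Among the DicerAQP2Cre+ libraries replicate 3 was the nearest to the controls in 21 of the 39 entries that limma called over the whole table (8.46% of those tested), so results are also given without it. Leaving out the library nearest to the controls favours larger differences, and those fits are no independent support.

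Neither arm of miR-210 passed the test between genotypes, the 3p arm having the higher mean in DicerAQP2Cre+ libraries and the 5p arm in controls. miR-210-3p, the arm known to act on mitochondrial targets, was a microRNA of moderate abundance, at rank 98 of 1081 by mean value. In controls it stood at 785, 784 and 912 normalized reads in replicates 1 to 3. In DicerAQP2Cre+ libraries it stood at 1205, 1184 and 818. Replicates 1 and 2 of that genotype were above every control, whereas replicate 3 fell among the controls, so the genotypes overlapped. The means were 827 ± 73.2 and 1069 ± 217 normalized reads (SD, n = 3 each). These values rest on 604 to 1629 reads per library, and the 95% exact Poisson interval of replicate 3, 763 to 877, lay wholly below those of replicates 1 and 2, whose lower bounds were 1147 and 1091. Such intervals hold for counting error alone, since reads copied by PCR do not count separate molecules.

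The log2 fold change of miR-210-3p, DicerAQP2Cre+ against control, was 0.35 ± 0.22 (SE, on log2(value + 1)) and did not pass (limma, Benjamini-Hochberg adjusted p = 0.334 over all 461 entries tested). Its 95% interval ran from -0.15 to 0.85, that is from 1.11-fold lower to 1.80-fold higher. For comparison, limma called 39 of 461 entries at an adjusted p under 0.05 (8.46%), and 268 entries had a larger absolute fold change than miR-210-3p. Without DicerAQP2Cre+ replicate 3 its log2 fold change was 0.53 (adjusted p = 0.0527, unadjusted p = 0.0122), which still missed the threshold. In that fit limma called 62 entries lower and 43 higher, against 23 and 16 with all 6 libraries.

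miR-210-5p, the arm often named miR-210 star and less studied, was almost as abundant, at rank 104. In controls it stood at 862, 705 and 1104 normalized reads. In DicerAQP2Cre+ libraries it stood at 698, 623 and 889. Replicates 1 and 2 lay below all controls, replicate 1 by no more than counting error, and replicate 3 lay between control replicates 1 and 3, so the genotypes overlapped for this arm too. The means were 890 ± 201 and 737 ± 137 (SD, n = 3 each), from 318 reads in the shallowest library to 1141 in control replicate 3. The log2 fold change was -0.27 ± 0.24 (limma adjusted p = 0.518), with a 95% interval from -0.80 to 0.27, or from 1.74-fold lower to 1.21-fold higher. Leaving out control replicate 3 or DicerAQP2Cre+ replicate 2 brought it to -0.10 or -0.15, and leaving out control replicate 2 or DicerAQP2Cre+ replicate 3 to -0.42 or -0.41. It passed in none of these limma fits (lowest adjusted p 0.180).

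**Figure D1:**
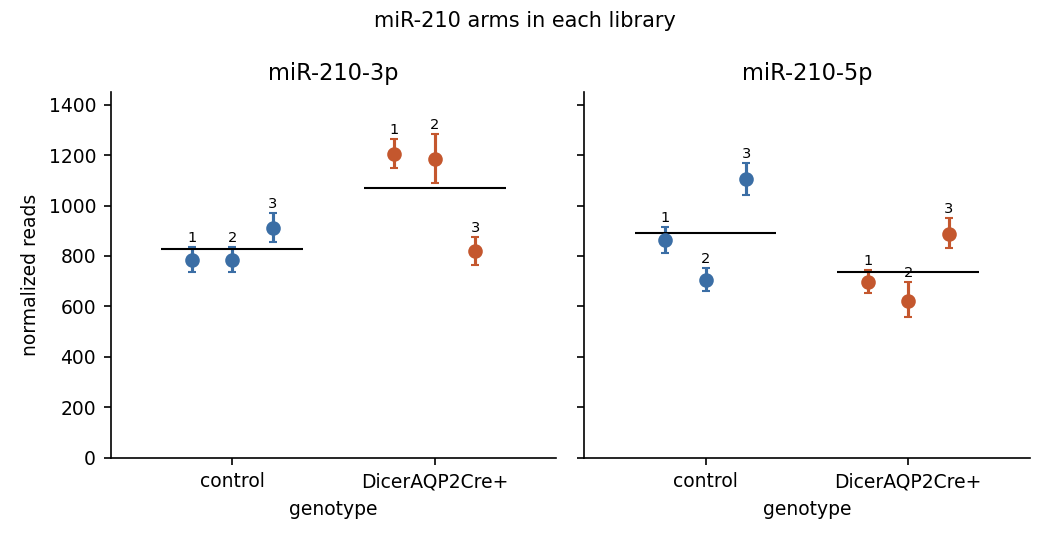
Normalized reads of miR-210-3p (left) and miR-210-5p (right) in each library by genotype. Points are libraries labelled with their replicate number, bars are 95% exact Poisson intervals and lines are means of 3. DicerAQP2Cre+ replicate 3 sits with the controls in both panels, at 818 for the 3p arm and 889 for the 5p arm.

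Ordered by mean, the 4 levels were miR-210-3p in DicerAQP2Cre+ libraries (1069), miR-210-5p in controls (890), miR-210-3p in controls (827) and miR-210-5p in DicerAQP2Cre+ libraries (737). Each step in this order was smaller than the larger SD of the 2 neighbours it separates. Within controls the SD of log2 values was 0.12 for miR-210-3p and 0.32 for miR-210-5p, against a median of 0.26 over all tested entries. Within DicerAQP2Cre+ libraries these SDs were 0.31 and 0.26 against a median of 0.42. Among controls miR-210-3p thus varied less than the median entry and miR-210-5p more, and among DicerAQP2Cre+ libraries both varied less. These medians cover entries down to a mean of 5, with far fewer reads and more counting error. The 2 entries just above and the 2 just below miR-210-3p in mean value had SDs of 0.005 to 0.26 in controls and 0.20 to 0.57 in DicerAQP2Cre+ libraries.

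As a share of all microRNA reads, miR-210-3p took 0.0151%, 0.0161% and 0.0191% in controls and 0.0214%, 0.0206% and 0.0141% in DicerAQP2Cre+ libraries. miR-210-5p took 0.0165%, 0.0145% and 0.0232% against 0.0124%, 0.0108% and 0.0153%. On this scale replicate 3 of DicerAQP2Cre+ held the lowest miR-210-3p value of all 6 libraries. The most abundant entry, miR-181a-5p, took 43.3 to 52.8% of reads in controls and 58.2 to 66.8% in DicerAQP2Cre+ libraries. With libraries set to equal totals the median over all tested entries of the log2 fold change moved from -0.01 to -0.21. The log2 fold change of miR-210-3p was then 0.14 (limma adjusted p = 0.764) and that of miR-210-5p -0.48 (adjusted p = 0.206), so both kept their sign and neither passed.

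The ratio of the arms is free of the scaling of libraries, since both arms share it. In controls the 3p arm held 47.7%, 52.7% and 45.2% of miR-210 reads, with 95% exact binomial intervals of 45.5 to 49.8%, 50.4 to 54.9% and 43.1 to 47.4%. In DicerAQP2Cre+ libraries it held 63.3%, 65.5% and 47.9%, with intervals of 61.4 to 65.2%, 62.3 to 68.6% and 45.5 to 50.4%. Replicates 1 and 2 of DicerAQP2Cre+ stood above all controls by more than counting error, and replicate 3 lay within the control range.

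Reads of the 3p arm per read of the 5p arm numbered 0.911, 1.11 and 0.826 in controls and 1.73, 1.90 and 0.921 in DicerAQP2Cre+ libraries. The mean log2 ratio was -0.09 ± 0.22 in controls and 0.53 ± 0.57 in DicerAQP2Cre+ libraries (SD, n = 3 each). The difference of 0.62, a 1.53-fold shift toward the 3p arm, did not pass an exact two-sided permutation test (p = 0.2), in which 3 against 3 libraries cannot go below 0.1. A limma fit was also run on the arm ratios of 108 hairpins. Their arms matched by name, were both tested and had reads in every library. Hairpins with differently named or joined arms, such as miR-181a-5p with miR-181a-1-3p, were left out. For miR-210 the limma fit gave a 95% interval from -0.30 to 1.53 (adjusted p = 0.547, unadjusted p = 0.167). That fit called 0 of 108 hairpins (0%) in either direction at an adjusted p under 0.05, with 15 at an unadjusted p under 0.05. Without DicerAQP2Cre+ replicate 3 the difference was 0.94 (exact p = 0.1, the smallest that 3 against 2 allows, and limma unadjusted p = 0.0169, adjusted p = 0.203). Without DicerAQP2Cre+ replicate 1 or 2 it was 0.49 or 0.42 (limma adjusted p = 0.707 and 0.653). Opposite signs of the 2 arms' fold changes are therefore a description of these libraries, as the difference between them did not pass.

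**Figure D2:**
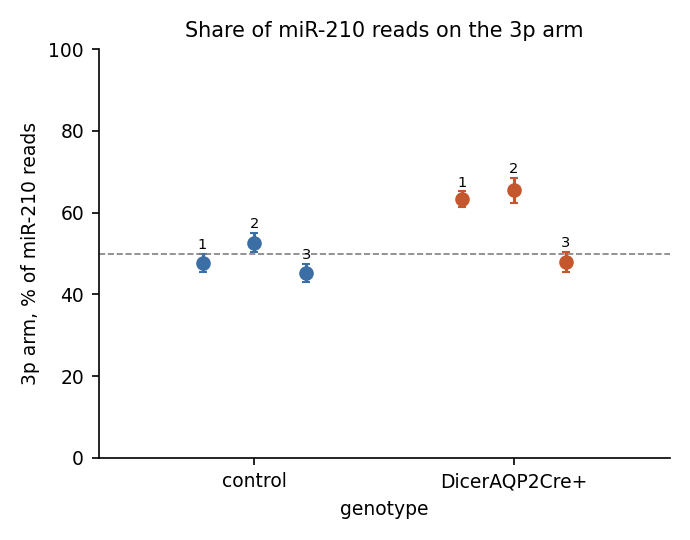
Share of miR-210 reads on the 3p arm, in percent, for each library by genotype, with 95% exact binomial intervals and replicate numbers. The dashed line marks 50%. Replicates 1 and 2 of DicerAQP2Cre+, at 63.3% and 65.5%, stand above the controls, and replicate 3, at 47.9%, lies among them.

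In controls the arms of miR-210 were nearly equal. Most other hairpins had far more reads of 1 arm than of the other, with a median difference of 10.2-fold between arms in controls over the 108 hairpins. Only 22 of 108 had arms within 2-fold of each other and 58 differed by more than 8-fold. miR-210, with a mean 3p to 5p ratio of 0.942 in controls, was the third most even of 108. Reads were not calibrated against molecules, so this is a ratio of reads. The change of its ratio with genotype ranked 39 of 108 by absolute size, with a median absolute change of 0.47 over all 108 against 0.62 for miR-210.

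**Figure D3:**
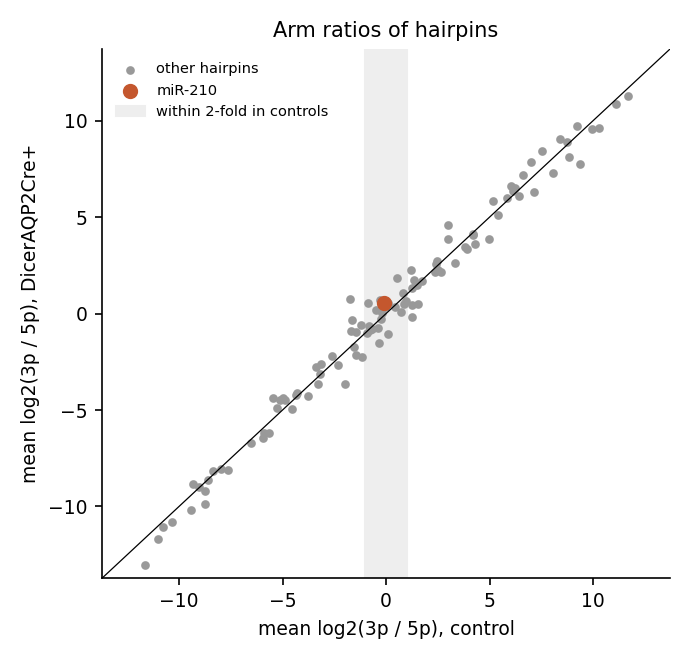
Mean log2 ratio of 3p to 5p reads of 108 hairpins in controls (horizontal axis) and DicerAQP2Cre+ libraries (vertical axis), with the line of equality and a band for ratios within 2-fold in controls. miR-210 lies in the band, at -0.09 and 0.53, while the arms of most hairpins differ by much more.

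Summed over both arms, the output of the miR-210 hairpin was 1647, 1490 and 2016 normalized reads in controls. It was 1903, 1807 and 1707 in DicerAQP2Cre+ libraries. All 3 of the latter lay within the control range. The means of 1718 ± 270 and 1806 ± 97.8 (SD, n = 3 each) did not differ beyond the spread within controls. The difference of the mean log2 values was 0.08 (exact two-sided permutation p = 0.6).

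**Figure D4:**
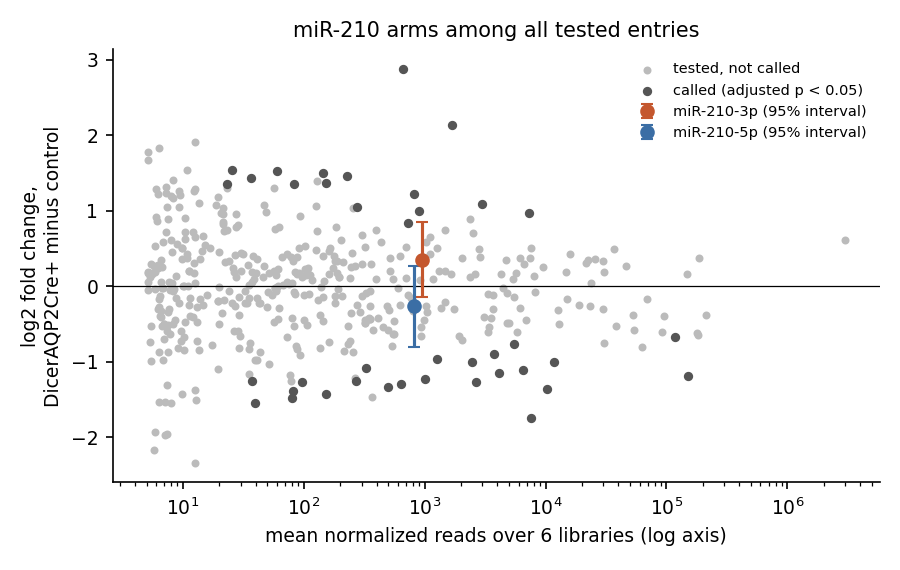
Log2 fold change, DicerAQP2Cre+ minus control, against mean normalized reads (log axis) for the 461 tested entries, with the 39 called ones in dark grey. miR-210-3p (0.35) and miR-210-5p (-0.27) are shown with their 95% limma intervals, both of which cross 0.

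Entries next to miR-210-3p in abundance were read in the same way. Just above it stood miR-1843b-3p (log2 fold change -0.44, adjusted p = 0.304 in limma) and miR-99b-3p (0.33, adjusted p = 0.307). Just below stood miR-1839-5p (-0.66, adjusted p = 0.130) and miR-192-5p, a microRNA of cortical tubules (-0.54, adjusted p = 0.235). None of these 4 passed, and miR-99b-3p was the 1 whose fold change had the sign of that of miR-210-3p.

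The profile of miR-210-3p over the 6 libraries, on log2(value + 1), was most like those of miR-324-3p (Pearson r = 0.98), miR-143-5p (0.97), miR-1247-5p (0.95), miR-106b-3p (0.95) and miR-99b-3p (0.94) among 459 other tested entries. In each of these 5, DicerAQP2Cre+ replicate 3 was the lowest of its group and closest to the controls, as for miR-210-3p. The choice by r favours this pattern, so it is no separate observation. miR-99b-3p, for example, stood at 864, 862 and 867 normalized reads in controls and 1207, 1154 and 931 in DicerAQP2Cre+ libraries. Of the 5, miR-1247-5p alone rose, with means of 119 ± 20.8 in controls and 1204 ± 848 in DicerAQP2Cre+ libraries (2.88 ± 0.63 on the log2 scale, adjusted p = 0.0172 in limma). The profiles most opposed were those of miR-1941-3p (r = -0.97), miR-200a-5p (-0.96) and miR-30c-2-3p (-0.96). miR-200a-5p, of the epithelial miR-200 family, stood at 321, 310 and 263 in controls and 143, 167 and 246 in DicerAQP2Cre+ libraries (limma adjusted p = 0.111). These likenesses describe 6 libraries, in each of which all entries share a size factor. An r above 0.9 was found for 11 entries and an r below -0.9 for 15.

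The 2 arms of miR-210 did not share a profile. Their correlation over the same 6 libraries was -0.51, and -0.29 after the mean of each genotype was subtracted. Of the 459 other entries, 27.2% had a lower correlation with miR-210-3p than its own opposite arm.

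Markers of other cell types were set beside these values. Over all entries limma called 3.47% higher and 4.99% lower, and with control replicate 2 or 3 left out it called 0, those of the markers included (43 lower and 40 higher, or 47 and 45, before adjustment at p under 0.05). The 4 stromal markers miR-143-3p, miR-145a-5p, miR-199a-3p (counted with miR-199b-3p) and miR-214-3p summed to 23139 to 24331 normalized reads in controls and 27498 to 39621 in DicerAQP2Cre+ libraries, and 2 of 4 rose. Most of each sum was miR-143-3p, at 18042 to 20001 against 20899 to 28838, which did not pass (limma adjusted p = 0.315). miR-214-3p, of stromal cells and injured kidney, stood at 3941 and 3200 in DicerAQP2Cre+ replicates 1 and 2 but at 1155 in replicate 3. miR-210-3p had the same order within that genotype, but not within controls, where miR-214-3p stood at 551, 735 and 422. The endothelial pair, miR-126a-3p and miR-126a-5p, summed to 961 to 1229 against 830 to 1245. Among 4 leukocyte markers the sum, nearly all miR-150-5p, was 12167 to 35214 against 15922 to 38104, and miR-142a-3p was at 0 in 5 of 6 libraries. Of the 3 erythroid markers, which summed to 84624 to 147220 against 66039 to 98714, nearly all was miR-486a-5p, whose entry is joined with miR-486b-5p, while miR-451a stood between 11.8 and 30.97. Cortical tubule markers summed to 1277 to 1340 against 627 to 1131 and 1 of 2 tested fell, miR-194-5p, while miR-215-5p was at 0 in 5 of 6 libraries. Most of the cortical sum was miR-192-5p, at 1017 to 1149 against 492 to 1075, which did not pass (limma adjusted p = 0.235). Of the neuronal pair miR-9-5p fell, their sum going from 772 to 977 down to 320 to 412, and miR-124-3p was at 0 in 5 of 6 libraries. The part of these cell types in the values of miR-210 was not tested.

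Other microRNAs described in the literature as raised by low oxygen were followed as a list of 15, without miR-210. All 15 were tested, of which 0 rose and 1 fell in limma (2 and 2 at an unadjusted p under 0.05), and 8 of the 15 fold changes were above 0. Over all entries limma called 3.47% higher and 4.99% lower. edgeR and DESeq2 each called 1 member higher, where they called 4.12% and 6.29% of all entries higher. They called 1 and 2 members lower, where they called 23 and 31 of all 461 entries lower. The median log2 fold change of the list was 0.10, against -0.01 over all 461 entries. Members that share a family or cluster, such as those of miR-181 or of miR-23, miR-27 and miR-24, are not separate units. miR-181a-5p, the most abundant entry of the table, had 2754247, 2332125 and 2064259 normalized reads in controls and 3598297, 3842608 and 3387683 in DicerAQP2Cre+ libraries. Its genotypes did not overlap, as in 4 of the 15 members and in 33.6% of all tested entries. Its log2 fold change of 0.61 ± 0.18 did not pass (limma adjusted p = 0.0641). miR-26a-5p, which represses Ezh2 among other targets, fell, from 135639, 153443 and 141671 to 96301, 83785 and 89552 (log2 fold change -0.68 ± 0.17, limma adjusted p = 0.0272). In limma the count of lower members was 0 when any 1 control library or DicerAQP2Cre+ replicate 2 was left out (2 or 3 at an unadjusted p under 0.05), and without DicerAQP2Cre+ replicate 3 it was 4, with 1 higher.

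A further list of 15 held microRNAs described as acting on the HIF pathway, that is on Hif1a itself, on its inhibitor Hif1an, or on Vhl and Cul2, parts of the ligase that marks HIF for degradation. Of these 14 were analysed here and 13 tested, with 2 lower and 1 higher in limma, against 4.99% and 3.47% of all entries. The median log2 fold change of the list was -0.67, against -0.01 over all entries. The list mixes microRNAs acting on Hif1a with others acting on genes that restrain it, so this median gives no direction for HIF. miR-31-5p, which represses Hif1an, fell from 3674, 3709 and 3793 normalized reads in controls to 1464, 1238 and 2062 (-1.26 ± 0.22 on the log2 scale, adjusted p = 0.0126 in limma). miR-429-3p, an epithelial microRNA described as acting on Hif1a, fell from 1360, 1375 and 1469 to 523, 560 and 728 (-1.23 ± 0.21, adjusted p = 0.0126). miR-429-3p is also in the epithelial list above, and miR-145a-5p is among the stromal markers that rose there. miR-145a-5p, of smooth muscle, rose from 2550, 1769 and 1456 to 4764, 4070 and 3238 (1.09 ± 0.25, adjusted p = 0.0196). The genotypes did not overlap in 9 of the 13 tested members, these 3 among them, against 33.6% of all tested entries. Members are not separate units, as miR-17-5p, miR-18a-5p, miR-20a-5p and miR-92a-3p, all with negative log2 fold changes, can come from the miR-17~92 cluster. The most abundant members, miR-92a-3p (-0.62, limma adjusted p = 0.0918) and miR-22-3p (-0.52, adjusted p = 0.358), did not pass.

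Counts in that list moved with single libraries. With control replicate 2 left out limma called 0 members in either direction (4 lower and 1 higher before adjustment, at p under 0.05), and likewise with control replicate 3 left out (3 and 2). With either replicate 1 or replicate 2 of DicerAQP2Cre+ left out it called 0 higher (2 unadjusted). With replicate 3 of DicerAQP2Cre+ left out it called 4 lower and 3 higher. miR-155-5p, an inflammatory microRNA that both lists hold, stood at 468, 551 and 536 in controls and 112, 141 and 407 in DicerAQP2Cre+ libraries (-1.47 ± 0.41, limma adjusted p = 0.0512), again with replicate 3 nearest to the controls. It was chosen after its values were seen.

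**Figure D5:**
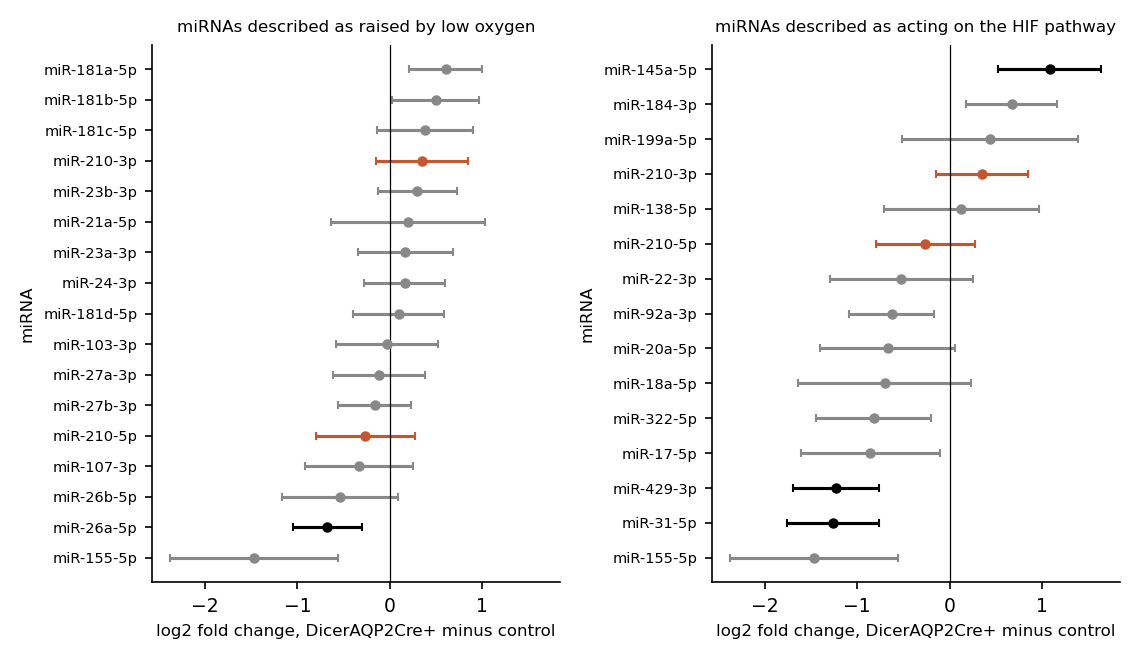
Log2 fold change, DicerAQP2Cre+ minus control, with 95% limma intervals, for the tested members of both lists and the miR-210 arms (orange). Black marks an adjusted p under 0.05. The intervals of miR-210-3p (0.35) and miR-210-5p (-0.27) cross 0. miR-210-3p lies above 12 of 15 members of the low-oxygen list and 10 of 13 of the HIF list, miR-210-5p above 4 of 15 and 9 of 13, while miR-26a-5p, miR-31-5p and miR-429-3p lie below 0 and miR-145a-5p above.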

How the data were processed

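Small RNA libraries of inner medulla were compared between 3 control and 3 DicerAQP2Cre+ mice. The deposited signal values were whole read counts divided by a size factor per library, as read from the values: 100% were whole multiples of the worth of 1 read within 0.01 read. Per the submitters' processing notes, the tools were FastQC 0.11.3 and DESeq2 and the build was mm9. For the aligner, the counter and the microRNA annotation, the name is not given in the sources used here. RefSeq and GENCODE for GRCm38 supplied sequences, matched by name, and neighbours, so no coordinates are printed.

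limma 3.58.1 (R 4.3.3) was fitted with a mean-variance trend on log2(value + 1) over the 461 entries with a mean of at least 5, two-sided, without a replicate block. Arm ratios were compared by exact permutation (scipy 1.17.1) and, chosen after seeing the data, by limma without a trend over 108 hairpins. Other settings included edgeR 4.0.16 and DESeq2 1.42.0 on recovered reads. RNAfold 2.7.2 folded the hairpin. Scripts were tested on simulated data. A count of 0 allows up to 3 reads.

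Members and lists were chosen with earlier results of these data known. Named entries were both arms, in each hypoxia list the 2 most abundant and all called members, the 5 profiles most and 3 least like miR-210-3p by Pearson r, and the 2 entries above and below it in abundance. Libraries of a genotype differed by more than sampling noise.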

Additional observations from a re-analysis of the deposited data

How the results depend on the processing

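In all 16 other settings miR-210-3p kept a log2 fold change above 0 (0.14 to 0.53, lowest adjusted p 0.0527) and miR-210-5p one below 0 (-0.48 to -0.10, lowest adjusted p 0.180), and neither passed. The arm ratio difference stayed above 0 in all 16 of its settings (0.42 to 0.94). Of these, 8 were limma fits, in which it did not pass, and 8 were exact tests, which cannot reach 0.05 with so few libraries. By edgeR and DESeq2 miR-210-3p had log2 fold changes of 0.44 (adjusted p = 0.246) and 0.41 (adjusted p = 0.270), with medians of all entries at 0.10 and 0.07. Against 23 lower and 16 higher entries in limma, the counts were 11 and 7 without a trend, 48 lower with equal totals and 29 higher by DESeq2. Leaving out 1 library gave 0 to 62 lower and 0 to 43 higher. The zeros came without control replicate 2 (43 lower and 40 higher at an unadjusted p under 0.05) and without control replicate 3 (47 and 45). These fits hold fewer samples, and for the other settings the cause was not tested. Among the 16 settings, members lower in the list raised by low oxygen numbered 0 to 4 and higher 0 to 1, and in the HIF list 0 to 5 and 0 to 3.

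The replicate numbers showed no sign of pairing the libraries: deviations of same-numbered libraries correlated at -0.06, 0.01 and 0.06, and 2 of 6 libraries correlated best with their own number. So few libraries cannot exclude a pairing. With the replicate block limma called 18 lower and 14 higher, the adjusted p was 0.389 for miR-210-3p and 0.421 for miR-210-5p, and the arm ratio gave an exact p of 0.25, the smallest that a sign-flip test over 3 pairs can give, with 0 members lower in limma in the list raised by low oxygen (3 at an unadjusted p under 0.05). With 3 mice a genotype, the limma interval leaves room for a change of up to 1.80-fold in miR-210-3p.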
